A study of Mus musculus with 20 samples.

Results

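The mitochondrially encoded genes are the genes carried by the small circular DNA inside mitochondria. They were taken as every gene of the expression table whose symbol starts with mt-, which gave 37 of 54986 genes. Of these, 13 were messenger RNAs (mRNAs), 2 ribosomal RNAs (rRNAs) and 22 transfer RNAs (tRNAs). All 37 were described, and 18 of them (all 13 mRNAs, both rRNAs and 3 tRNAs) reached at least 1 CPM (count per 1e6 reads) in at least 2 of the 20 libraries and were tested among 17106 genes.

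The study measured RNA by sequencing in NMuMG, an epithelial line from the normal mouse mammary gland, and in lines made from it, to follow gene expression in epithelial–mesenchymal transition, tumor formation and metastasis. There were 10 groups of 2 libraries. NMuMG (WT cells) and NMuMG cells treated with TGFbeta (TGFβ) carried no silencing construct. E1KD cells were NMuMG silenced for hnRNP E1 (the product of Pcbp1) with an shRNA, M1P cells were a line recovered from a primary tumor grown from E1KD cells in immunodeficient mice, and L1P cells were a line from a lung metastasis of the same model. The Empty vector line and the Platr18-overexpressing clones 12 and 16 were NMuMG cells with a further vector and with hnRNP E1 not silenced, and each clone is a single clone. E1KD SCR and E1KD Platr18 KD were E1KD cells that also carried a scrambled shRNA or an shRNA against the long noncoding RNA Platr18. Nothing in the labels says that the 2 libraries of a group came from separate cultures, so p-values measure only the spread between these libraries, which may be technical.

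Mitochondrial DNA encodes core subunits of the respiratory chain and of ATP synthase, together with the rRNAs and tRNAs that translate them inside the organelle. Both of its strands are transcribed as long precursors, which are cut mostly at the tRNAs that lie between the other genes. The remaining subunits, and every protein that transcribes, cuts, stabilises and translates these RNAs, are encoded in the nucleus. In epithelial cells, as in other tissues, these RNAs are among the most abundant of the cell.

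Of the 37 genes, 28 lie on the forward strand of chromosome M (mouse build GRCm38.p6) and 9 on the reverse strand, 8 of which are tRNAs and the other mt-Nd6. The mRNAs run from mt-Nd1 at chrM:2751-3707 to mt-Cytb at chrM:14145-15288, without introns. Neighbouring genes share bases, and the longest shared stretch is the 43 bases in which the end of mt-Atp8 (chrM:7766-7969) is also the start of mt-Atp6 (chrM:7927-8607). The 30 bases around the start of mt-Atp6, from GENCODE M21, are shown because a read there belongs to both genes; capitals mark the start codon of mt-Atp6.
mt-Atp8 and mt-Atp6, chrM:7915-7944, forward strand: ttgagaattaaaATGaacgaaaatctattt
The other overlaps that involve an mRNA were 14 bases between mt-Nd5 and mt-Nd6 on opposite strands, 7 bases between mt-Nd4l and mt-Nd4, 3 bases between mt-Co1 and mt-Ts1 on opposite strands, 2 bases between mt-Nd2 and mt-Tw, 2 between mt-Nd1 and mt-Ti, and 1 between mt-Atp6 and mt-Co3. Whether reads were counted by strand is not given in the sources used here, so reads of mt-Nd6 and antisense reads of its locus cannot be told apart.

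The libraries fell into 2 kinds that the labels do not name. The first kind held NMuMG, TGFβ, E1KD, M1P and L1P, and the second kind held the 5 lines with a further vector, so the vector and the kind of library cannot be told apart. The kinds had been recognised from mt-Rnr2 and from Rn7sk, a small nuclear RNA at 0.419 to 9.0 CPM in the first kind and 6461 to 10097 CPM in the second, so the levels of mt-Rnr2 between kinds are given without a test. Libraries of the first kind held 50.8 to 60.0 times 1e6 reads and those of the second 63.0 to 147 times 1e6, so that 3 reads, the limit that a count of 0 allows, were worth 0.0204 to 0.0591 CPM; limits of this kind cover counting error only. E1KD replicate 1 stood apart, since its values over genes summed to 72.9% of 1e6 against 54.7% to 58.1% in the other 9 libraries of the first kind, and results that rest on it are given with and without it. Pcbp1 stood at 287 and 312 CPM in NMuMG, 16.6 and 14.2 in E1KD, 3.28 and 3.46 in E1KD SCR but also at 32.3 in both Empty vector libraries, and Lncenc1, the table's name for Platr18, at 3092 and 3096 CPM in clone 12, 813 and 820 in clone 16 and 0.136 and 0.170 in E1KD Platr18 KD. The epithelial markers Epcam and Esrp1 averaged under 1 CPM in every group, while the summed level of the epithelial marker list was 1336 to 4007 CPM and that of the mesenchymal list 507 to 1812 CPM. Host leukocyte and endothelial markers together reached 5.80 to 6.95 CPM in M1P and L1P, against 1.45 to 4.28 CPM in the other groups. Of these 6 genes, 4 averaged under 1 CPM in M1P and in L1P.

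The 13 mitochondrial mRNAs together made up 4.97% and 4.82% of the CPM summed over genes in NMuMG, 6.51% and 6.60% in TGFβ, 3.13% and 3.47% in E1KD, 3.90% and 3.83% in M1P, and 3.72% and 3.63% in L1P. In the second kind of library they made up 2.28% and 2.21% in Empty vector, 1.65% and 1.5% in clone 12, 2.13% and 2.02% in clone 16, 2.27% and 2.05% in E1KD SCR, and 2.66% and 2.59% in E1KD Platr18 KD. The TGFβ libraries were the highest and those of clone 12 the lowest, and no library of one kind reached the range of the other on this measure. The sum over genes includes the rRNAs, which are a large share of it in the second kind only. As summed CPM of the 13 mRNAs the kinds overlapped, with E1KD replicate 2 at 19712 and E1KD Platr18 KD replicate 1 at 19752. In these bulk samples, fewer cells with a gene active and less RNA per cell cannot be told apart.

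**Figure D1:**
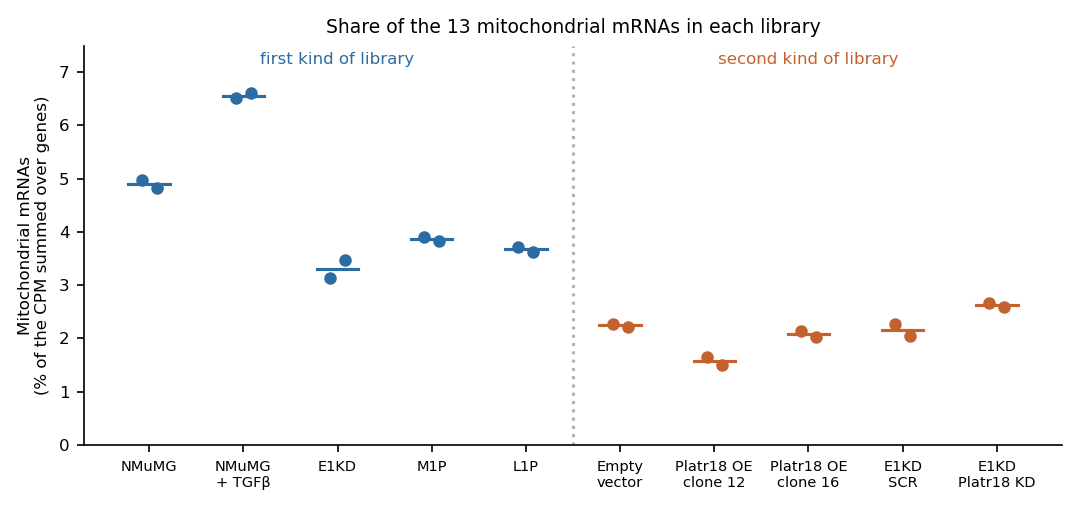
Share of the 13 mitochondrial mRNAs in each library. The vertical axis is their percentage of the CPM summed over genes, points are single libraries, bars are the mean of the 2 libraries of a group and the dotted line parts the 2 kinds of library; TGFβ was highest at 6.51% and 6.60% and clone 12 lowest at 1.65% and 1.5%.

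Several mitochondrial mRNAs have near-identical copies in the nuclear genome, to which the authors' expectation–maximization assignment could give some of their reads. A stretch of chromosome 1 (chr1:24611535-24616197) holds copies of 7 of the mRNAs at more than 99% identity, annotated as RP23-8J15.1 to RP23-8J15.7. Those of mt-Co2, mt-Atp6, mt-Co3, mt-Nd3 and mt-Nd4l cover nearly the whole gene, and 48.4% to 51.2% of the CPM of each such pair stood at the copy in every library. The pairs below are shown because a read of the copied part that misses the capital matches both genes equally; capitals mark the base at which a copy differs, with A1066T counted from the first base of mt-Co1 and T3C from that of mt-Nd3.
mt-Co1, chrM:6390-6407, forward strand: ggaAttgttttatccaac
RP23-8J15.1, chr1:24616171-24616188, reverse strand: ggaTttgttttatccaac
mt-Nd3, chrM:9459-9475, forward strand: atTaacctgtacactgt
RP23-8J15.5, chr1:24613103-24613119, reverse strand: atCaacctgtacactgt
Less similar copies behaved differently between the 2 kinds of library. The copy of mt-Co1 on chromosome 2, RP23-407K8.3 (97.6% identity), held 0.189% to 1.20% of the pair's CPM in the first kind and 17.8% to 18.7% in the second, and that of mt-Co2, RP23-407K8.4 (95.9% identity), 0.260% to 3.56% and 23.1% to 24%. That of mt-Nd2, RP23-407K8.2, held 0.00349% to 0.0491% and 4.62% to 5.72%. The 30 bases of mt-Co1 below have 2 differences to this chromosome 2 copy, in capitals, and none to the copy on chromosome 1.
mt-Co1, chrM:6478-6507, forward strand: gagcagtgtttgctatcatagcaggattTG
RP23-8J15.1, chr1:24616071-24616100, reverse strand: gagcagtgtttgctatcatagcaggattTG
RP23-407K8.3, chr2:22588468-22588497, reverse strand: gagcagtgtttgctatcatagcaggattCA
Together the 7 copies on chromosome 1, without those on chromosome 2, held 20.1% to 23.1% of their summed CPM with the mRNAs in the first kind. In the second kind they held 25.8% to 26.9%. Of the chromosome 1 copies, that of mt-Co1 held 10.9% to 14.1% of the pair's CPM in the first kind and 17.9% to 18.7% in the second. That of mt-Nd4 held 20.2% to 25.4% and 29.1% to 31.0%. Levels of the mRNAs named below are of the mitochondrial gene alone unless stated. Values between kinds of mt-Co1, mt-Co2, mt-Nd2 and mt-Nd4 are uncertain by these shares.

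Per kilobase of gene, with the copies on chromosome 1 added, mt-Co1 was the highest mRNA of NMuMG, at a mean of 8056 CPM per kb, and mt-Co2 the next at 6586. These are catalytic subunits of cytochrome c oxidase (complex IV). The subunits of NADH dehydrogenase (complex I) spread widely, from mt-Nd1 at 4348 CPM per kb to mt-Nd2 at 1585, mt-Nd4 at 1076, mt-Nd4l at 880, mt-Nd3 at 606, mt-Nd5 at 534 and mt-Nd6, the only mRNA of the reverse strand, at 383. The third complex IV subunit, mt-Co3, stood at 3918, the ATP synthase (complex V) subunit mt-Atp6 at 3732, and mt-Cytb, the cytochrome b of complex III, at 2822. mt-Atp8, the second ATP synthase subunit and the shortest mRNA at 204 bases, was lowest at 259. Among neighbours in this order, only mt-Co3 and mt-Atp6 overlapped between the NMuMG libraries.

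The order differed in Empty vector. There mt-Co1 at 5548 and mt-Co2 at 4919 CPM per kb again led, followed by mt-Co3 at 4470, mt-Nd1 at 3653 and mt-Atp6 at 3009. mt-Nd3 at 1269 and mt-Atp8 at 748 stood above their NMuMG levels, whereas mt-Cytb at 900, mt-Nd2 at 715, mt-Nd4 at 235, mt-Nd5 at 203, mt-Nd4l at 162 and mt-Nd6 at 46.2 stood below them. Here only mt-Atp8 and mt-Nd2 overlapped among neighbours.

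**Figure D2:**
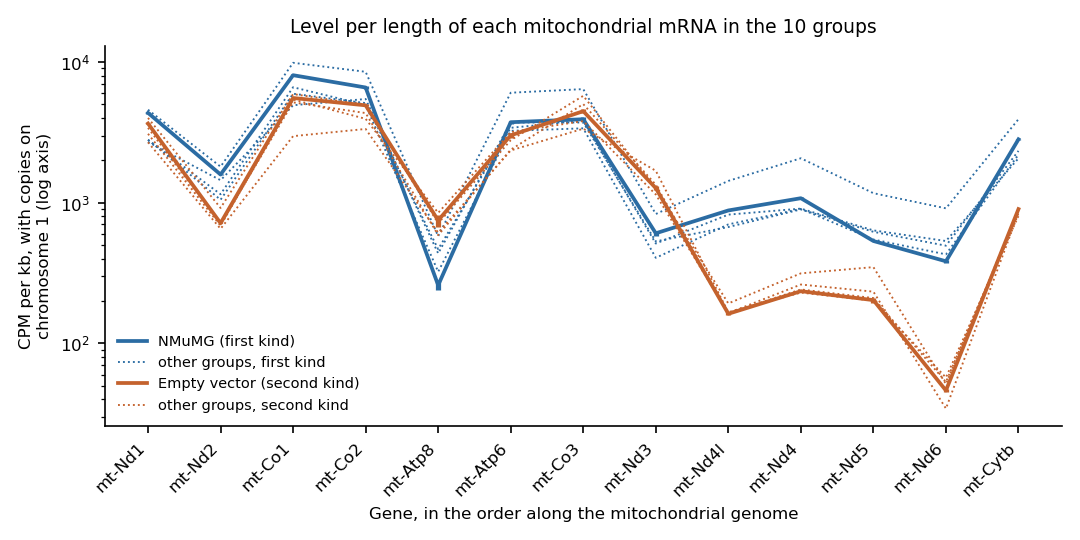
Mean level per length of each mitochondrial mRNA in the 10 groups. The horizontal axis orders the genes along the mitochondrial genome, the vertical log axis is CPM per kb with the chromosome 1 copies added, thick lines are NMuMG and Empty vector with bars from the lowest to the highest library, and dotted lines are the other groups; from mt-Nd4l to mt-Cytb the second kind of library (orange) runs below the first (blue).

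TGFβ, which drives epithelial–mesenchymal transition in these cells, went with higher levels of most mitochondrial mRNAs. Of the 13, 11 rose and none fell in TGFβ against NMuMG, with a median log2 fold change of 0.68 against -0.08 over all genes tested (limma on log2(CPM + 1), adjusted p under 0.05 over all genes). Over all genes 55.4% were called, 21.8% higher and 33.6% lower. mt-Nd6, mt-Atp8 and mt-Nd5 moved most, and mt-Nd1 and mt-Nd2, the mRNAs nearest to the rRNAs, did not pass the test.

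mt-Nd5 stood at 971 and 977 CPM in NMuMG and at 1957 and 2302 in TGFβ. The TGFβ libraries were higher without overlap, with a ratio of mean CPM of 2.19 (log2 fold change 1.12, SE 0.08, limma adjusted p = 3.6e-08). mt-Nd6 stood at 203 and 195 CPM against 417 and 529, a ratio of 2.38 (adjusted p = 6.89e-06 by limma), and mt-Nd4, a core membrane subunit, at 1202 and 1162 against 2111 and 2285, a ratio of 1.86. The small subunits mt-Nd4l and mt-Nd3 followed with ratios of 1.62 and 1.38. By contrast mt-Nd1, at 4213 and 4109 CPM in NMuMG and 4164 and 4600 in TGFβ, overlapped between the groups (log2 fold change 0.07, SE 0.08, limma adjusted p = 0.493), and mt-Nd2 had a log2 fold change of 0.19 (limma adjusted p = 0.075).

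Outside complex I, mt-Cytb rose from 3253 and 3203 CPM to 4303 and 4670 (log2 fold change 0.47, SE 0.09). The complex IV subunits also rose, mt-Co3 from 1589 and 1489 CPM to 2502 and 2537 (ratio 1.64), mt-Co2 by a ratio of 1.29 and mt-Co1, from 11188 and 10848 CPM to 13154 and 13866, by a ratio of 1.23. mt-Co1 rose least among the genes called but carried the most CPM. Of the ATP synthase subunits, mt-Atp6 rose from 1300 and 1237 CPM to 1975 and 2145 (ratio 1.62). mt-Atp8 rose from 57.0 and 48.6 CPM to 111 and 124, a ratio of 2.23, with a limma adjusted p of 0.0122 that became 0.0735 without NMuMG replicate 2 and 0.0629 without TGFβ replicate 2.

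Within the pool of mitochondrial mRNAs, the share of mt-Co1 went from 39.7% in NMuMG to 36.5% in TGFβ and that of mt-Nd1 from 15.0% to 11.8%, while mt-Nd5 went from 3.51% to 5.74% and mt-Nd4 from 4.26% to 5.94%. When the libraries were rescaled to equal sums over the 13 mRNAs, so that the test reads this composition, 7 were higher and 2 lower in TGFβ. With the 3 other scalings tried, 12 were higher and 0 lower. Counts under scalings, here and below, stand without the share of all genes called in the same fits. The rRNAs did not rise: mt-Rnr1, the small-subunit rRNA, went from 282 and 277 CPM to 216 and 198 (log2 fold change -0.43, SE 0.08, limma adjusted p = 0.000412), and mt-Rnr2, the large-subunit rRNA, had a log2 fold change of -0.10 (limma adjusted p = 0.415).

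E1KD cells went mostly the other way. Against NMuMG, 7 mRNAs fell and 2 rose, with a median log2 fold change of -0.24 against 0.17 over all genes, of which 56.6% were called, 39.6% higher and 17.1% lower. Fitted on the 2 groups alone, 0 mRNAs passed, against 9 at an unadjusted limma p under 0.05 in the fit of all libraries. The TGFβ and E1KD contrasts share the NMuMG libraries, so they are set side by side only. mt-Nd1 went from 4213 and 4109 CPM to 2850 and 2511 (log2 fold change -0.64, SE 0.08, limma adjusted p = 1.26e-05) and mt-Nd2 from 1670 and 1620 to 1162 and 1015 (-0.60, SE 0.08). These genes, which did not pass the test after TGFβ, were the most reduced in E1KD.

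The other mRNAs that fell were mt-Co1 (log2 fold change -0.46), mt-Cytb (-0.45), mt-Co2 (-0.37), mt-Nd4 (-0.32) and mt-Nd3 (-0.24, limma adjusted p = 0.0426); the calls of mt-Nd4 and mt-Nd3 were lost without NMuMG replicate 1 or E1KD replicate 2, and that of mt-Nd3 also without NMuMG replicate 2. mt-Nd5, at 1244 and 1074 CPM in E1KD, and mt-Nd6, at 312 and 243, were above the NMuMG libraries without overlap, with ratios of 1.19 and 1.39. These 2 calls were lost without either NMuMG library and without the E1KD library that stands apart. Over the genes tested, E1KD replicate 1 lay above replicate 2 by a median log2 ratio of 0.29, so leaving it out shifts genes in general. Without E1KD replicate 1 the mRNAs had a median of -0.42, with mt-Nd1 at -0.73 and mt-Nd2 at -0.70. In that fit mt-Nd4l had -0.47, mt-Atp6 -0.36, mt-Nd5 0.14 and mt-Nd6 0.29. Without replicate 2 instead, mt-Nd4 had -0.22 and mt-Nd3 -0.11. mt-Atp8 shows the difference between the libraries, at 145 and 45.4 CPM in E1KD against 57.0 and 48.6 in NMuMG (log2 fold change 0.62, SE 0.35, limma adjusted p = 0.147). mt-Rnr1 and mt-Rnr2 had log2 fold changes of 0.02 and -0.07, with libraries that overlapped those of NMuMG. Rescaling by median-of-ratios factors gave 0 higher and 10 lower, equal sums over all genes 1 higher and 10 lower, and equal sums over the mitochondrial mRNAs 5 higher and 2 lower.

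M1P and L1P follow the silenced cells through tumor growth and metastasis. In M1P against E1KD only mt-Nd3 fell among the 13 mRNAs, from 97.4 and 81.4 CPM to 72.6 and 68.0 (log2 fold change -0.34, SE 0.10, limma adjusted p = 0.0108), and none rose, where 49.1% of all genes were called, 12.1% higher and 37.0% lower. mt-Nd5, at 1025 and 971 CPM in M1P, lay below both E1KD libraries at a limma adjusted p of 0.050, just outside the threshold. mt-Rnr2 was higher in M1P, at 492 and 452 CPM against 437 and 369 (log2 fold change 0.23, SE 0.09, limma adjusted p = 0.0493), a call lost without E1KD replicate 2 or either M1P library, with a largest adjusted p of 0.316. The call of mt-Nd3 was lost without E1KD replicate 1 or M1P replicate 2. Without E1KD replicate 1, mt-Co1 (0.25), mt-Nd2 (0.23) and mt-Atp8 (0.50) were higher, mt-Nd3 had -0.21 and was not called, and no mRNA was lower. Without E1KD replicate 2, 0 were higher and 8 lower. The 3 scalings other than to the mitochondrial mRNAs gave 3 higher and 0 lower, and equal sums over the mitochondrial mRNAs 0 higher and 3 lower, so the direction for this step depended on 1 library and on the scaling. The counts without an E1KD library stand without the share of all genes called in the same fits. With only these groups in the fit, 0 mRNAs passed, against 3 at an unadjusted limma p under 0.05 in the fit of all libraries.

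L1P differed from M1P in few mRNAs, and the largest called difference was in the most abundant of them. mt-Co1 stood at 9038 and 9062 CPM in M1P and at 6858 and 6607 in L1P, without overlap (log2 fold change -0.43, SE 0.07, limma adjusted p = 0.000968), and it took 41.2% of the mitochondrial mRNA pool in M1P and 32.6% in L1P. mt-Nd2 rose from 1241 and 1142 to 1493 and 1505 CPM (ratio 1.26) and mt-Nd3 from 72.6 and 68.0 to 92.4 and 92.9 (ratio 1.32), in both cases without overlap. Neither rise was called when M1P replicate 2, L1P replicate 1 or L1P replicate 2 was left out. These 2 higher and 1 lower mRNAs compare with 11.2% of all genes called higher and 7.30% lower (18.5% in all), and equal sums over all genes gave 4 higher and 1 lower, equal sums without the mitochondrial genes 3 and 1, and equal sums over the mitochondrial mRNAs 7 and 1. Both rRNAs fell in L1P, mt-Rnr1 from 287 and 281 CPM to 226 and 225 (log2 fold change -0.33, SE 0.08) and mt-Rnr2 from 492 and 452 to 333 and 345 (-0.47, SE 0.09), although the call of mt-Rnr1 was lost in each of the 4 fits that left out 1 library, with a largest limma adjusted p of 0.0822.

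**Figure D3:**
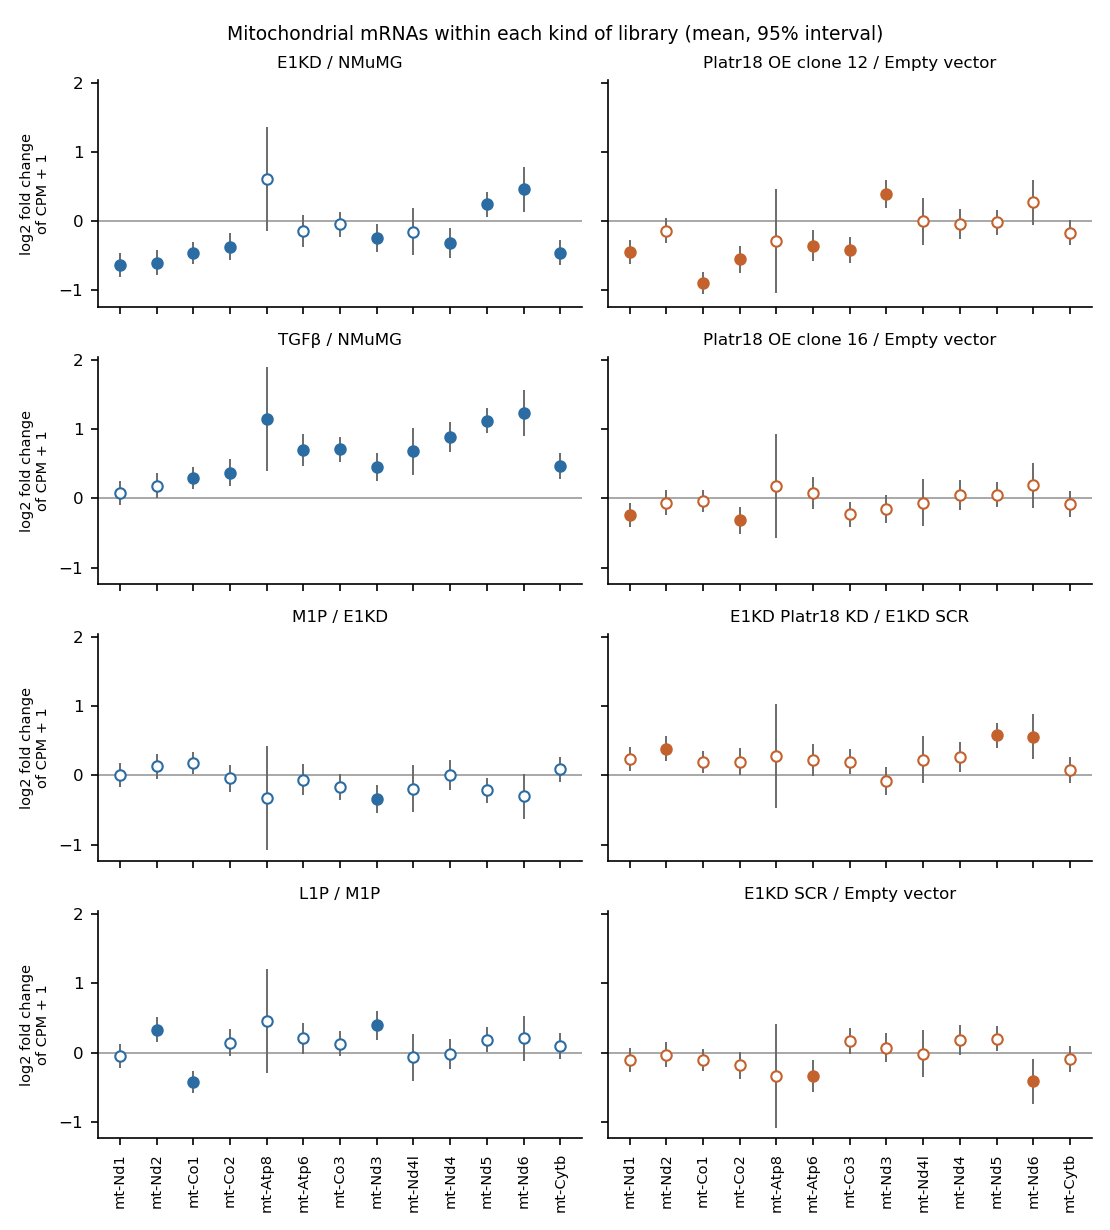
Log2 fold changes of the 13 mitochondrial mRNAs, in the order along the genome, in 8 comparisons within a kind of library. Points are means with 95% intervals from limma on log2(CPM + 1), filled points have an adjusted p under 0.05 over all genes tested, blue is the first kind of library and orange the second; mt-Nd6 had the highest value in TGFβ against NMuMG at 1.24 and mt-Co1 the lowest in clone 12 against Empty vector at -0.90.

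The Platr18-overexpressing clones were compared with Empty vector to read what the long noncoding RNA changes. Over both clones, 4 mRNAs fell and 0 rose, namely mt-Co1 (log2 fold change -0.47), mt-Co2 (-0.43), mt-Nd1 (-0.34) and mt-Co3 (-0.32), with a median of -0.10 against 0.01 over all genes and 28.8% of all genes called, 13.2% higher and 15.6% lower. Equal sums over the mitochondrial mRNAs gave 8 higher and 2 lower. Each clone is 1 line, and the mean over them hid a large difference between them.

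In clone 12 (39.6% of all genes called), mt-Co1 stood at 3830 and 3686 CPM against 6990 and 6998 in Empty vector (log2 fold change -0.90, SE 0.07, limma adjusted p = 3.63e-07). mt-Co2 (-0.55), mt-Nd1 (-0.44), mt-Co3 (-0.42) and mt-Atp6 (-0.35) also fell, so that all the mitochondrial subunits of complex IV were lower. One mRNA rose: mt-Nd3, from 230 and 218 CPM to 323 and 270 (log2 fold change 0.40, SE 0.10, limma adjusted p = 0.00415). The call of mt-Nd3 was lost without clone 12 replicate 1, and that of mt-Atp6 without either clone 12 library or Empty vector replicate 1. Equal sums over the mitochondrial mRNAs turned the 1 higher and 5 lower calls into 8 higher and 1 lower. That scaling divided the clone 12 libraries by 0.626 and 0.584 and those of Empty vector by 0.880 and 0.872. It therefore lifts genes in general in clone 12. mt-Co1 took 30.7% of the mitochondrial mRNA pool in clone 12 and 39.5% in Empty vector. In clone 16 (23.2% of all genes called), mt-Co1 was 7003 and 6661 CPM and overlapped Empty vector (log2 fold change -0.03, limma adjusted p = 0.826). Only mt-Nd1 (-0.24, limma adjusted p = 0.0429) and mt-Co2 (-0.32, limma adjusted p = 0.0205) fell, and the first of these calls was lost in each of the 4 fits without 1 library and the second in 3 of them.

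The difference between the clones was tested directly. In clone 16 against clone 12 (42.5% of all genes called, 23.7% higher and 18.9% lower), mt-Co1 was higher by a ratio of 1.82 (log2 fold change 0.86, SE 0.07, limma adjusted p = 4.48e-07) and mt-Atp6 by 1.34, and mt-Nd3 was lower (-0.55, SE 0.10). Read as composition, by equal sums over the mitochondrial mRNAs, 1 was higher and 10 were lower.

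mt-Rnr1 separated clone 12 from all other lines of the second kind. It stood at 1974 and 1767 CPM in clone 12 against 5043 and 4955 in Empty vector (log2 fold change -1.42, SE 0.08, limma adjusted p = 9.76e-09), while clone 16, at 5192 and 4654 CPM, had -0.02 (limma adjusted p = 0.905). mt-Rnr2, which lies next to mt-Rnr1 with only a tRNA between them, moved much less, from 161659 and 165149 CPM in Empty vector to 141634 and 130699 in clone 12 (-0.26, SE 0.09), and that call was lost without either Empty vector library or clone 12 replicate 2, the largest limma adjusted p being 0.192. The ratio of mt-Rnr2 to mt-Rnr1 was thus 32.1 and 33.3 in Empty vector, 71.8 and 74.0 in clone 12 and 29.9 and 30.1 in clone 16.

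E1KD Platr18 KD against E1KD SCR asked what silencing Platr18 changes in hnRNP E1-silenced cells. Here 3 mRNAs rose and none fell, with a median of 0.23 against -0.02 over all genes and 19.5% of all genes called (8.45% higher). The 3 called encode complex I subunits, but 12 of the 13 mRNAs had a positive log2 fold change and 8 an unadjusted limma p under 0.05. mt-Nd5 went from 437 and 413 CPM to 644 and 626, without overlap (ratio 1.49, log2 fold change 0.58, SE 0.08, limma adjusted p = 0.000213). mt-Nd2 went from 767 and 689 CPM to 991 and 913 (ratio 1.31), and mt-Nd6 from 16 and 19.7 to 25.8 and 27.5 (ratio 1.49). mt-Nd6 is low in this kind of library and its call was lost in 3 of the 4 fits without 1 library, and that of mt-Nd2 in 2. Equal sums over all genes raised the calls to 9 higher and 0 lower, and equal sums over the mitochondrial mRNAs gave 2 higher and 1 lower. mt-Rnr2 fell, from 155556 and 145039 CPM to 113874 and 114262 (log2 fold change -0.40, SE 0.09, limma adjusted p = 0.00682, or 0.0624 without E1KD SCR replicate 1), whereas mt-Rnr1 had 0.24 (limma adjusted p = 0.0542), and the ratio of the rRNAs was 28.5 and 28.1 in E1KD SCR and 18.0 and 18.3 in E1KD Platr18 KD. Lncenc1 in E1KD SCR, at 2.92 and 3.10 CPM, was not above the 3.68 and 3.06 CPM of Empty vector.

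**Figure D4:**
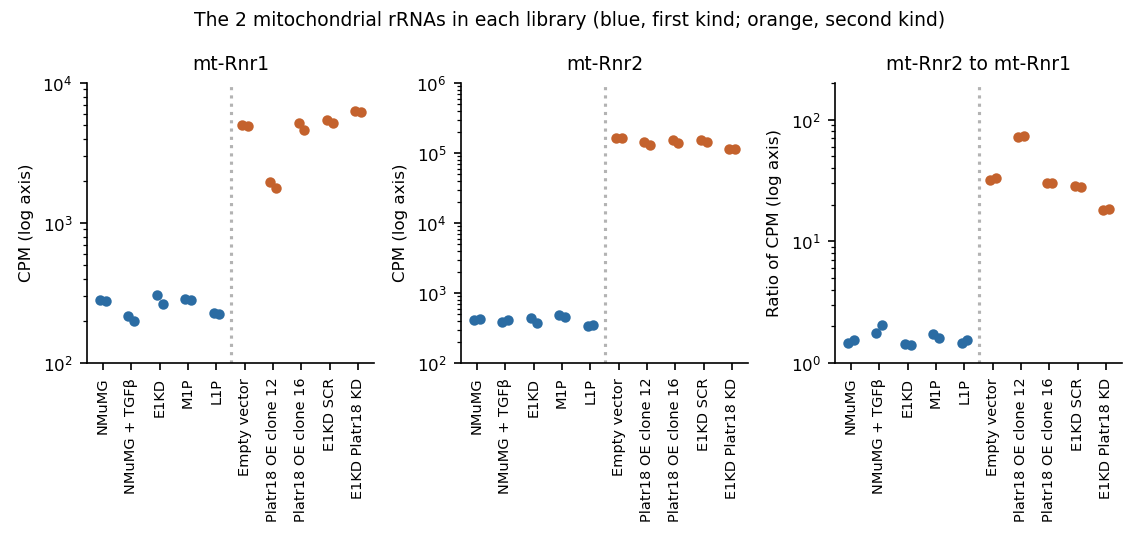
The 2 mitochondrial rRNAs in each library. The vertical log axes are CPM of mt-Rnr1, CPM of mt-Rnr2 and the ratio of mt-Rnr2 to mt-Rnr1, and points are single libraries, blue for the first kind and orange for the second; clone 12 stands out by its mt-Rnr1, at 1974 and 1767 CPM, and its ratio of 71.8 and 74.0.

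E1KD SCR against Empty vector compared an hnRNP E1-silenced with an unsilenced line within the second kind of library. These lines also differ in their further vector, a scrambled shRNA against an empty overexpression vector, and silencing and vector cannot be told apart. Of the 13 mRNAs, 2 fell and none rose, mt-Atp6 from 1063 and 986 CPM to 846 and 778 (log2 fold change -0.34, SE 0.11, limma adjusted p = 0.0208) and mt-Nd6 from 24.7 and 23.3 to 16 and 19.7 (-0.41, SE 0.15, limma adjusted p = 0.0407), where 42.6% of all genes were called, 23% higher and 19.6% lower. Both calls depended on single libraries, that of mt-Atp6 being lost in 2 and that of mt-Nd6 in 3 of the 4 fits without 1 library. Equal sums over all genes gave 2 higher and 2 lower, and equal sums over the mitochondrial mRNAs 3 higher and 1 lower. mt-Nd1 (-0.10), mt-Nd2 (-0.03) and mt-Co1 (-0.11), the mRNAs most reduced in E1KD against NMuMG, were not called here.

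The test of the difference between the contrasts, E1KD SCR against Empty vector minus E1KD against NMuMG, which holds the same mix of silencing and vector, called 5 mRNAs where 21.3% of all genes were called (5.86% higher, 15.4% lower). mt-Nd2 (0.57, SE 0.12), mt-Nd1 (0.53, SE 0.11), mt-Nd4 (0.50, SE 0.14) and mt-Co1 (0.35, SE 0.10) had a higher log2 fold change in the second kind, and mt-Nd6 a lower one (-0.88, SE 0.21, limma adjusted p = 0.00942). Leaving out single libraries ended the call of mt-Co1 in 5, of mt-Nd4 in 4 and of mt-Nd6 in 1 of the 8 fits, the largest adjusted p being 0.113. Without E1KD replicate 1 the difference was called for more mRNAs, though leaving that library out shifts genes in general. With 3 of the scalings the difference was called for 8 higher and 1 lower. In equal sums over the mitochondrial mRNAs it was called for 2 higher and 4 lower, and with only these 4 groups in the fit for 0, against 7 at an unadjusted limma p under 0.05 in the fit of all libraries.

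Between the kinds, the unsilenced lines Empty vector and NMuMG differed in 12 of the 13 mRNAs, 10 lower and 2 higher in Empty vector, where 79.4% of all genes were called, 42.9% higher and 36.5% lower. The mRNAs from mt-Nd4l onwards along the genome had the largest falls. mt-Nd6 stood at 24.7 and 23.3 CPM against 203 and 195 in NMuMG, an 8.29-fold difference (log2 fold change -3.0, SE 0.15, limma adjusted p = 1.6e-10). mt-Nd4 was 5.27-fold lower, at 230 and 219 CPM against 1202 and 1162, mt-Nd4l 5.32-fold, mt-Cytb 3.13-fold and mt-Nd5 2.63-fold.

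The remaining mRNAs differed less or the other way. mt-Nd2 was 2.22-fold lower and mt-Co1 1.58-fold, while mt-Nd3, at 230 and 218 CPM against 110 and 101, was 2.12-fold higher and mt-Atp8, at 167 and 138 CPM against 57.0 and 48.6, 2.89-fold higher. mt-Co3 had a log2 fold change of 0.18 (limma adjusted p = 0.0608), which was -0.29 with equal sums over all genes. As composition, 6 mRNAs were higher and 6 lower. The GC content of the genes ran from 31.9% (mt-Atp8) to 41.1% (mt-Nd4l), and its part in these differences was not tested.

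E1KD SCR against E1KD, the hnRNP E1-silenced lines of the 2 kinds, had 9 mRNAs lower and 3 higher (79.8% of all genes called, 36.3% higher and 43.5% lower). mt-Nd6 was 15.5-fold lower, at 16 and 19.7 CPM against 312 and 243, and mt-Nd4l 4.96-fold, mt-Nd4 3.71-fold, mt-Nd5 2.73-fold and mt-Cytb 2.45-fold. mt-Nd3 was 2.64-fold higher, and mt-Co3 (0.39) and mt-Nd1 (0.28) had smaller rises in log2 fold change. The call of mt-Nd1 was lost without E1KD SCR replicate 1, where it had 0.21. In Empty vector against NMuMG mt-Nd1 went the other way, at a mean of 3496 against 4161 CPM. Without E1KD replicate 1, mt-Atp8 had a log2 fold change of 1.38. The ratio of mt-Nd6 to mt-Nd5, neighbours on opposite strands, was 0.199 to 0.251 in the first kind of library, and 0.0640 and 0.0658 in Empty vector and 0.0365 and 0.0477 in E1KD SCR.

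By a stricter rule, an unadjusted limma p under 0.001 with a log2 fold change of 1 or more in either direction, TGFβ against NMuMG kept mt-Nd5 and mt-Nd6 (13.5% of all genes passed), and no mRNA passed in the other comparisons within a kind. The share of all genes that passed there was 9.44% in E1KD against NMuMG, 3.59% in M1P against E1KD, 1.21% in L1P against M1P, 1.46% for both clones, 3.65% for clone 12, 1.78% for clone 16, 4.38% between the clones, 1.48% in E1KD Platr18 KD against E1KD SCR, 5.98% in E1KD SCR against Empty vector and 3.51% for the difference. Between 3 and 9 mRNAs had an unadjusted limma p under 0.05 in each of these. Between the kinds, Empty vector against NMuMG passed 2 higher and 6 lower (35.3% of all genes) and E1KD SCR against E1KD 1 higher and 5 lower (35.0%), mt-Nd4l, mt-Nd4, mt-Nd5, mt-Nd6 and mt-Cytb being lower in both.

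The rRNAs separated the kinds far more. mt-Rnr1 (chrM:70-1024) ranged from 198 to 306 CPM in the first kind and from 1767 to 6329 in the second, and was 17.9-fold higher in Empty vector than in NMuMG. mt-Rnr2 (chrM:1094-2675) ranged from 333 to 492 CPM in the first kind and from 113874 to 165149 in the second, a 389-fold ratio between Empty vector and NMuMG. Both rRNAs together were 0.0993% to 0.137% of the CPM summed over genes in the first kind and 16.2% to 21.3% in the second, so that values in the second kind are shares of a sum in which 1 gene is large.

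The tRNAs were seen in the second kind of library only. All 22 were at 0 in all 10 libraries of the first kind, which allows up to 0.0591 CPM in the shallowest of them. In the second kind 17 to 22 were above 0 and together reached 8.95 to 12.4 CPM, from 595 to 1440 reads per library. The 3 of highest level are shown, because they carried most of this signal; capitals mark the anticodon, the letters that pair with the codon, and the sequences are from GENCODE M21.
mt-Tl1 (leucine), chrM:2676-2750, forward strand: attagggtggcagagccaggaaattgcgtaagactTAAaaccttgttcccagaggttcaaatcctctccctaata
mt-Tm (methionine), chrM:3845-3913, forward strand: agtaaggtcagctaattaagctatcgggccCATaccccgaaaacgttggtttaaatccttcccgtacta
mt-Tw (tryptophan), chrM:4950-5016, forward strand: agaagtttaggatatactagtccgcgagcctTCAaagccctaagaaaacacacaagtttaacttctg
mt-Tl1 starts at the base after mt-Rnr2 ends and stops at the base before mt-Nd1, and held 54.6% to 64.2% of the tRNA CPM. It stood at 5.32 to 7.34 CPM in the second kind, at least 90.1-fold higher than the limit of 3 reads in the first kind. mt-Tm, next to mt-Nd2, was at least 17.4-fold and mt-Tw, which shares 2 bases with mt-Nd2, at least 10.4-fold higher. Among the other 19, mt-Ti had the highest mean over the second kind, at 0.621 CPM, and no library reached more than the 0.802 CPM of mt-Tp.

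mt-Tw was 1.71 and 1.53 CPM in clone 12 against 0.616 and 1.17 in Empty vector and 0.845 and 0.740 in clone 16. The clone 12 libraries were the highest without overlap, but mt-Tw reached 1 CPM in 2 libraries only through clone 12, so this is a description and no test of clone 12 is given. mt-Tl1 and mt-Tm, which passed the filter through several groups, were not called by limma in any comparison within this kind.

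The nuclear genes of the same complexes give the setting of the mitochondrial calls. The list of nuclear subunits of complexes I, III, IV and V held 70 tested genes. In TGFβ against NMuMG, 45 of them fell and 0 rose, with a median of -0.62, where 33.6% of all genes fell, 21.8% rose and the median was -0.08. Of the 13 mitochondrial mRNAs 11 rose. By complex, 25 of 36 fell in complex I, 6 of 9 in complex III, 4 of 10 in complex IV and 10 of 15 in complex V. Cox8a, a complex IV subunit, went from 296 and 305 CPM to 133 and 153 (log2 fold change -1.07, limma adjusted p = 4.73e-06), Ndufa6 of complex I had -0.99 and Uqcr10 of complex III -0.91. With the other scalings 0 rose and 50 to 64 fell, counts that stand without the share of all genes called in the same fits. Among these scalings, equal sums over the mitochondrial mRNAs divided the TGFβ libraries by 1.76 and 1.90. The NMuMG libraries were divided by 1.39 and 1.35, so that scaling lowers genes in general here.

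In E1KD against NMuMG the nuclear subunits were 37 higher and 2 lower (median 0.54), where 39.6% of all genes were higher and 17.1% lower. Without E1KD replicate 1, the library that stands apart, their median was 0.06. That library lay above replicate 2 by a median log2 ratio of 0.29 over the genes tested. A dependence of the nuclear subunits on it cannot be told apart from this general shift. Likewise in M1P against E1KD they were 1 higher and 51 lower (12.1% and 37.0% of all genes), and fewer were lower without that library. Leaving it out shifts genes in general as well. L1P against M1P called 1 higher and 1 lower (11.2% and 7.30% of all genes), the clones against Empty vector 0 and 2 (13.2% and 15.6%), E1KD Platr18 KD against E1KD SCR 1 and 0 (8.45% and 11%), and E1KD SCR against Empty vector 11 and 2 (23% and 19.6%). Between the kinds, in Empty vector against NMuMG, 63 were higher and 4 lower (median 1.75), where 42.9% of all genes were higher and 36.5% lower, and 10 mitochondrial mRNAs were lower.

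**Figure D5:**
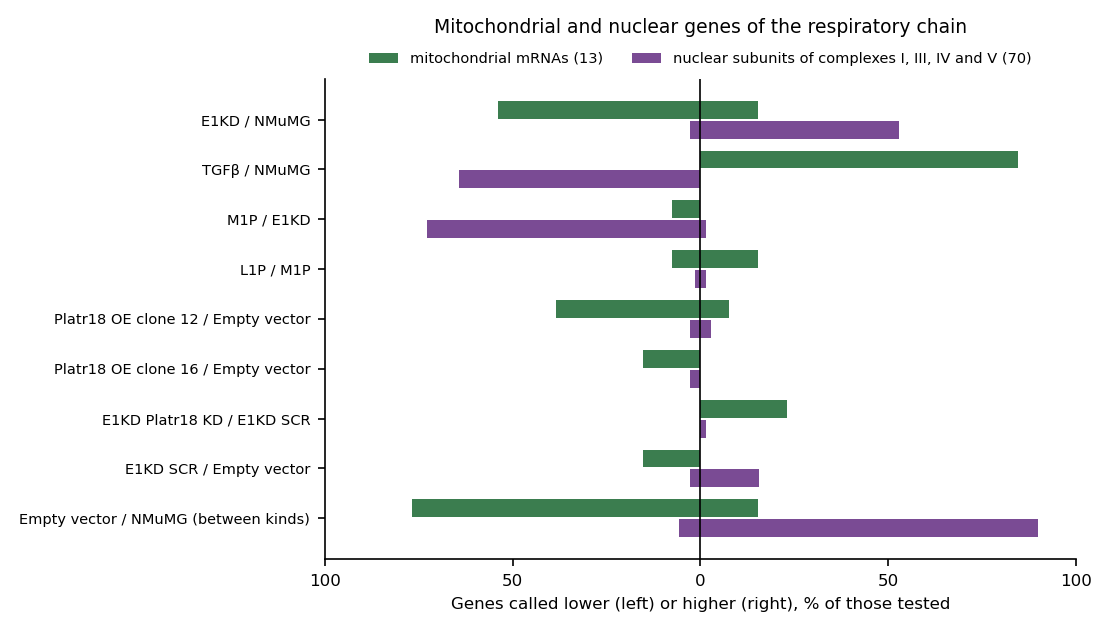
Mitochondrial mRNAs (green, 13 genes) and nuclear subunits of complexes I, III, IV and V (purple, 70 genes) called lower (left) or higher (right) in 9 comparisons, as a percentage of the genes tested on the horizontal axis. In TGFβ against NMuMG, 11 mitochondrial mRNAs were higher and 45 nuclear subunits lower.

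Other nuclear lists held genes that copy mitochondrial DNA and that transcribe and process its RNA. After TGFβ, 10 of 21 genes of RNA processing and stability fell and 0 rose, where 33.6% of all genes fell and 21.8% rose. Among them Hsd17b10, a subunit of the enzyme that cuts the 5′ end of mitochondrial tRNAs, went from 21.7 and 20.7 CPM to 5.93 and 6.90 (log2 fold change -1.58, SE 0.19, limma adjusted p = 4.85e-06). Of 14 genes of mitochondrial DNA maintenance 2 rose and 3 fell. Tfam, which packages mitochondrial DNA and starts its transcription, fell from 31.2 and 34.0 CPM to 16.5 and 16.9 (-0.92), as did Mgme1, an exonuclease of mitochondrial DNA (-0.99), while Tk2, a mitochondrial thymidine kinase, rose from 8.67 and 7.98 CPM to 12.2 and 12.3 (0.51, limma adjusted p = 4.07e-05). Of 10 genes of mitochondrial transcription 1 rose and 2 fell, Mrpl12, a mitochondrial ribosomal protein, with -1.16 and Mterf2, of the transcription termination factor family, with 0.31. Of the 8 regulators of mitochondrial biogenesis 2 rose and 3 fell, among them Nrf1, a transcription factor of respiratory genes (-0.64); 55.4% of all genes were called. No relation between these levels and those of the mitochondrial mRNAs was tested.

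In E1KD against NMuMG, 14 of the 21 processing genes rose and 0 fell (39.6% and 17.1% of all genes). Without E1KD replicate 1 fewer rose and some fell, and leaving that library out shifts genes in general as well. Pde12, which removes poly(A) tails in mitochondria, had a log2 fold change of 1.44 and Elac2, which cuts the 3′ end of tRNAs, 1.26. E1KD SCR against Empty vector had 10 higher and 0 lower (23% and 19.6% of all genes), with Pde12 at 1.11 and Fastkd5, an RNA-processing protein, from 20.5 and 19.8 CPM to 47.7 and 45.2 (1.16, limma adjusted p = 1.41e-09). E1KD Platr18 KD against E1KD SCR had 0 higher and 4 lower (8.45% and 11% of all genes), Fastkd5 among them (-0.40) and Elac2 with -0.46. L1P against M1P had 0 of the 21 processing genes higher and 1 lower (11.2% and 7.30% of all genes). Of the 10 genes of mitochondrial transcription it had 2 higher and 0 lower. Among these Mterf1a, a transcription termination factor that binds past the rRNA genes, rose from 3.4 CPM in both M1P libraries to 7.18 and 7.38 (0.91, limma adjusted p = 5.52e-07). Its relation to the rRNAs was not tested.

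Clone 12, the line with low mt-Rnr1 and mt-Co1, had 8 of the 21 processing genes higher and 0 lower than Empty vector (18.1% and 21.5% of all genes). Against clone 12, clone 16 had 7 of them lower and 0 higher (18.9% and 23.7% of all genes), among them Lrpprc, which stabilises mitochondrial mRNAs (-0.77, limma adjusted p = 0.0274), and Grsf1, which binds RNA in mitochondria (-0.51). Of the 8 regulators of mitochondrial biogenesis, 2 were higher and 1 lower in clone 16 than in clone 12, with a median of -0.13. The one that differed most was Esrra, a nuclear receptor that drives mitochondrial genes. It was 21.6 and 28 CPM in clone 12 and 56.8 and 64.9 in clone 16 (1.27, SE 0.14, limma adjusted p = 4.7e-06). No relation of these genes to mt-Rnr1 or mt-Co1 was tested.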

How the data were processed

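Mouse RNA from 20 libraries was sequenced and the authors deposited CPM (counts scaled to 1e6 reads) in 1 table of 54986 genes. They had added 0.0001 to each value, which was taken off for the levels given and kept in the fit. Per the study's methods, Bowtie2 placed single-pass reads on the genome and Partek's expectation–maximization step gave them to genes; the submitters' processing notes name Bowtie2 2.2.5 and build GRCm38.p6. This assignment shares reads among similar genes, so only 87.8% to 97.2% of low values per library were whole multiples of 1 read (tolerance 0.05, values under 200 reads) and no count test was run. Values summed over genes came to 54.7% to 79.7% of 1e6.

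The test was limma 3.58.1 (R 4.3.3) on log2(CPM + 1) (10 group means, all 20 libraries, 10 residual degrees of freedom, eBayes with trend) for genes of at least 1 CPM in at least 2 libraries. A gene was called, and said to rise or fall, at a Benjamini–Hochberg adjusted p under 0.05 over all 17106 genes tested. Fold changes on this scale understate those of low genes; ratios are of mean CPM. Alternatives were another pseudocount, other filters, 4 scalings, fewer libraries in the fit, a replicate block, another call rule and each library left out. Adding the copies to their genes, single clones and a crossed block were chosen after seeing the data. Simulated data with known changes and independent noise were run through the same fit. They held no shifted library and no difference between kinds, so they do not check the fit against these. Copies were found with BLAST 2.17.0 in GENCODE M21 transcripts, whose coordinates matched the table for 37 of 37 genes once 1 was taken off its end. Tables used Python 3.11.15, numpy 2.4.6 and pandas 2.3.3, and figures matplotlib 3.10.9.

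Every mitochondrial mRNA and rRNA is named; of the tRNAs, the 3 highest and those called within a kind; of each nuclear list, at most 3 called genes per comparison, those with the largest fold; and copies where shared reads are discussed. The members, the lists and the tests were chosen with earlier results of these data known.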

Additional observations from a re-analysis of the deposited data

Results flagged for a closer look

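Differences between effects that passed a test of the difference itself are given here as values. The difference between hnRNP E1-silenced and unsilenced lines on the log2(CPM + 1) scale, which in the second kind cannot be told apart from that of the vectors, was not the same in the 2 kinds of library for mt-Nd1 (0.53), mt-Nd2 (0.57), mt-Co1 (0.35), mt-Nd4 (0.50) and mt-Nd6 (-0.88), each as the change in E1KD SCR against Empty vector minus that in E1KD against NMuMG.

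The change against Empty vector differed between the Platr18-overexpressing clones, as clone 16 minus clone 12, for mt-Rnr1 (1.40), mt-Co1 (0.86), mt-Atp6 (0.43) and mt-Nd3 (-0.55). Of all genes tested, 42.5% were called between these clones, and each clone is a single line.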

How the results depend on the processing

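Of 2823 values of single genes under alternatives other than leaving out a library, 2501 kept direction and side of the threshold, 158 lost the call, 123 gained it and 41 turned direction. A rule of unadjusted limma p under 0.001 with a log2 fold change of at least 1 left 2 after TGFβ. It left 6 in E1KD SCR against E1KD. It left 0 in E1KD against NMuMG, M1P against E1KD, L1P against M1P, both clones, either clone and clone 16 against clone 12. Also at 0 were E1KD Platr18 KD against E1KD SCR, E1KD SCR against Empty vector and the difference. The rule limits both p and fold, and their parts in the loss were not tested. Fitting the compared groups alone left 0 in E1KD against NMuMG, M1P against E1KD and the difference, 7 in L1P against M1P and E1KD SCR against E1KD, and 1 in clone 16. Fitting 1 kind gave 1 in L1P against M1P, 5 between the clones and 4 in E1KD SCR against Empty vector. Equal sums over all genes gave 3 in M1P against E1KD, 5 in L1P against M1P, 9 in E1KD Platr18 KD, 4 in E1KD SCR against Empty vector and 9 in the difference. Median-of-ratios factors and sums without mitochondrial genes each gave 3 in M1P against E1KD and 9 in the difference. Equal mitochondrial mRNA sums gave 3 in M1P against E1KD, 8 in L1P against M1P, 10 for the clones, 11 between them and 4 in E1KD SCR against Empty vector. Without a filter, 0 were called in E1KD SCR against Empty vector and in clone 16, and 3 in the difference; a mean of 5 CPM gave 2 in M1P against E1KD, pseudocount 0.1 gave 1 in clone 16, clone 16 alone 2 of the clones' 4, and all copies added 2 in M1P against E1KD and 3 in the difference. Causes of these changes were not tested. The scalings moved the median of all genes in E1KD against NMuMG from 0.17 to between 0.02 and 0.04 and in M1P against E1KD from -0.17 to between -0.04 and -0.01; other shifts over 0.1 came from equal mitochondrial mRNA sums (to 0.47 in E1KD and -0.36 after TGFβ, for example) and, between kinds, from equal sums over genes (to -0.28 in Empty vector against NMuMG).

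Leaving out each library in turn gave 5 to 9 called in E1KD against NMuMG, 10 to 11 after TGFβ, 0 to 8 in M1P against E1KD, 1 to 3 in L1P against M1P, 3 to 5 for the clones, 3 between them, 1 to 3 in E1KD Platr18 KD, 0 to 1 in E1KD SCR against Empty vector, 10 to 12 in Empty vector against NMuMG, 11 to 12 in E1KD SCR against E1KD, 2 to 10 in the difference, 5 to 6 in clone 12 and 0 to 1 in clone 16. A lone sample was assumed to vary like the other groups. mt-Atp8 in M1P against E1KD ran from -1.16 to 0.50.

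Equal mitochondrial mRNA sums turned direction as follows. After TGFβ, mt-Nd1 had -0.34, mt-Nd2 -0.23, mt-Co1 -0.12 and mt-Co2 -0.044. In E1KD against NMuMG, mt-Co2 had 0.020, mt-Atp6 0.24, mt-Co3 0.35, mt-Nd3 0.14, mt-Nd4 0.070 and mt-Rnr2 0.32. In clone 16 against clone 12, mt-Nd1 had -0.22, mt-Nd2 -0.35, mt-Co2 -0.19, mt-Co3 -0.24, mt-Nd4 -0.34, mt-Nd5 -0.36, mt-Cytb -0.34, mt-Rnr2 -0.31 and mt-Tl1 -0.37. In clone 12, mt-Nd1 had 0.090, mt-Nd2 0.40, mt-Atp6 0.18, mt-Co3 0.12, mt-Nd4 0.50, mt-Nd5 0.52, mt-Cytb 0.37, mt-Rnr2 0.27 and mt-Tl1 0.45. Over both clones, mt-Nd2 had 0.22, mt-Atp6 0.18, mt-Cytb 0.20, mt-Nd4l 0.28 and mt-Tl1 0.27. In Empty vector against NMuMG, mt-Nd1 had 0.40, mt-Co2 0.21 and mt-Atp6 0.34, and mt-Co3 had -0.29 with equal sums over all genes. In E1KD SCR against E1KD, mt-Co1 had 0.036 and mt-Co2 0.093, and mt-Co1 0.032 with all copies added. In the difference, mt-Rnr1 had -0.24.

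Libraries of the same number shared only a number (correlations -0.12 to 0.29), and the replicate block lost no call and gained 10, giving 5 called between the clones and 5 in E1KD Platr18 KD. Crossing it for clone 16 changed 0 calls.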
